A study of Mus musculus with 2 samples.

Results

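The clustered protocadherins are cell adhesion receptors encoded by tandem genes on mouse chromosome 18. They were chosen by gene symbol: every gene of the alpha, beta or gamma cluster was taken. No measured value entered this rule, though the members were chosen with earlier results of these data known. The rule found 58 of the 55536 annotated genes, namely 12 alpha variable genes, 22 beta genes, 19 gamma variable genes (12 of type A and 7 of type B) and 5 C-type genes (Pcdhac1, Pcdhac2, Pcdhgc3, Pcdhgc4 and Pcdhgc5). Their levels were read in total RNA from left cerebral cortex. The tissue came from males of B6CASTF1/J, a cross of C57BL/6J and CAST/EiJ, aged 25 days. A single group of 2 libraries, replicate 1 and replicate 2, had no treatment, so the design holds no contrast between conditions. The labels call them biological replicates, but both libraries list the same donor entry. That they come from separate animals is an assumption from these labels and their tissue numbers, and the SDs below may be technical. For each library the authors deposited 1 gene table and 2 transcript files, so every level could be read from more than 1 quantification.

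Clustered protocadherins give each neuron a surface identity. A neuron is known to switch on a small set of variable promoters by a choice that looks random, guided by the chromatin proteins CTCF and cohesin, and the resulting proteins bind the same isoforms on a facing membrane, which lets branches of a neuron recognise and avoid each other. In the alpha and gamma clusters each gene is a variable first exon spliced to exons shared by the whole cluster, whereas beta genes have no shared exons, and the C-type genes are known to be expressed more evenly across neurons than the variable ones.

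On mm10 all 58 genes lie on the plus strand of chromosome 18. The alpha cluster, with its C-type genes, spanned 36930184 to 37187661, the beta cluster 37264938 to 37524479, and the gamma cluster 37661793 to 37841873. The annotation showed 3 shared exons in each of the alpha and gamma clusters. In the alpha cluster they measured 59, 89 and 2712 bases and served 14 genes, and in the gamma cluster they measured 59, 89 and 1971 bases and served 22 genes. The files gave the symbol Pcdha11 to 2 genes. ENSMUSG00000007440.10 starts at 37005203, where RefSeq on the same assembly places Pcdha10, and ENSMUSG00000102206.5 starts at 37010712, near the RefSeq start of Pcdha11; both are given here by identifier.

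The gene table held 30503944 expected counts in replicate 1 and 33263801 in replicate 2. The members took 35508 and 38416 of them, which was 0.117% (exact binomial 95% interval 0.116% to 0.118%) and 0.116% (0.115% to 0.117%) of the counts of annotated genes. These intervals cover counting error only. Marker lists of cell types were read beside the tissue label. All 4 neuronal markers lay between 143 and 1168 TPM, a level corrected for transcript length and library size. The 3 markers of serotonergic neurons lay between 0 and 0.24 TPM. The lists held no marker particular to cortex, so the region named by the label was not tested. The libraries differed in the levels of markers of other cells. The 8 choroid plexus and ependyma markers summed to 26.1 TPM in replicate 1 and 204 TPM in replicate 2, with no marker at 0. Most of each sum was Ttr, at 19.5 and 192 TPM. All 8 were higher in replicate 2, and 4 were over 2-fold apart. Foxj1 had 1.79 and 2.11 TPM, and Kcnj13 had 2.04 and 2.47 TPM. The 4 oligodendrocyte markers summed to 702 and 941 TPM. Whether cell numbers differed was not tested, nor whether these marker differences had a part in the differences between libraries given below.

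Nearly the whole family was present in the cortex. At 1 TPM or more in both libraries, 56 of 58 members were detected, beside 26.5% of all annotated genes and 58.4% of protein-coding genes. The exceptions were Pcdhb1, with 0 and 3 expected counts, and Pcdhb8, with 0.69 and 1.56 TPM. A count of 0 allows up to 3 counts, so Pcdhb1 was not detectable at this depth in replicate 1. Percentiles of mean TPM among annotated genes ran from 53.4 for Pcdhb1 to 98.2 for Pcdhgc5, with a median of 79.1.

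The level of the family was concentrated in few genes. The 5 C-type members made up 51.0% of the members' summed TPM in replicate 1 and 51.3% in replicate 2 (51.2% ± 0.20, SD, n = 2). The 12 alpha variable members held 11.8% ± 0.09, the 22 beta members 14.8% ± 0.41 and the 19 gamma variable members 22.3% ± 0.51. Median levels were 41.1 and 36.5 TPM for C-type members, 4.28 and 3.78 TPM for alpha variable members, 2.72 and 2.92 TPM for beta members, and 4.33 and 4.42 TPM for gamma variable members. In tissue RNA, fewer cells that express a gene and less RNA per cell cannot be told apart. The share of expected counts, which is not corrected for length, was 47.9% for C-type members in each library, with exact binomial intervals of 47.4% to 48.4%.

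**Figure D1:**
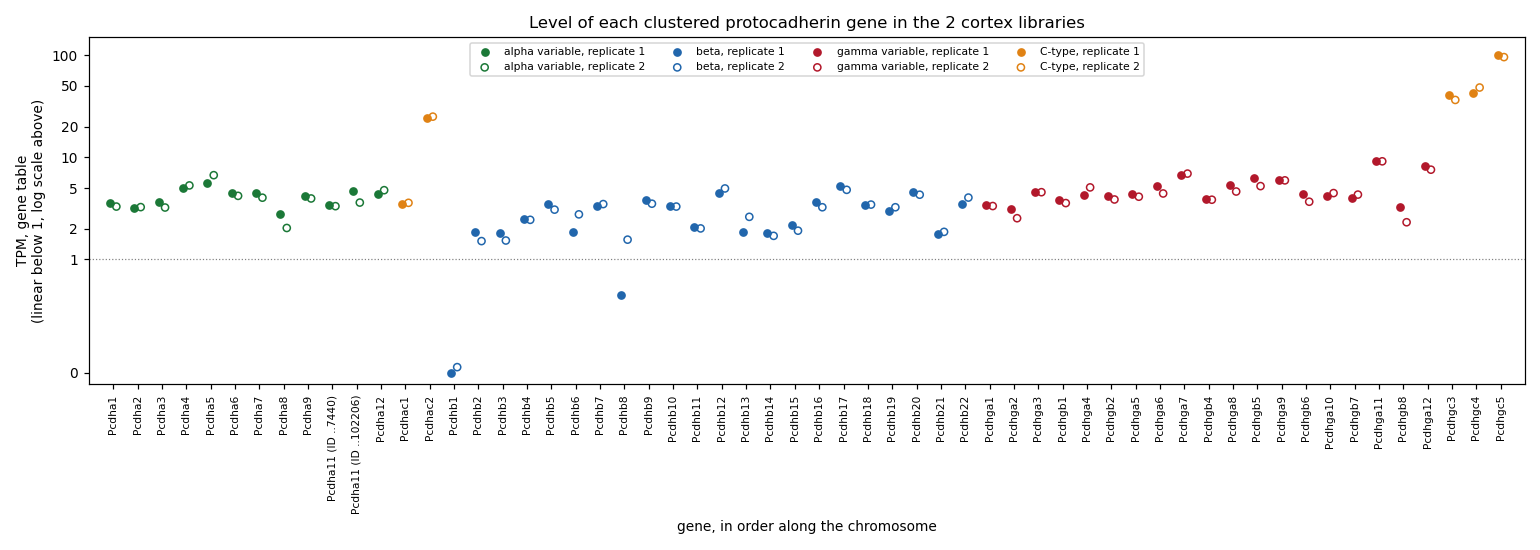
TPM of each of the 58 members in the gene table (vertical axis, linear below 1 and logarithmic above) in order along the chromosome, with filled points for replicate 1 and open points for replicate 2 and colours for the 4 classes. Variable and beta members lie mostly between 1 and 10 TPM, and Pcdhac2, Pcdhgc3, Pcdhgc4 and Pcdhgc5 lie above 20 TPM in both libraries.

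Among the C-type genes, Pcdhgc5 (ENSMUSG00000102543.5), which is known to be expressed mainly after birth and to bind GABA-A receptors, was highest. It had 101 TPM in replicate 1 and 95.8 TPM in replicate 2 (98.5 ± 3.79, SD, n = 2), which was 22.7 times the median gamma variable member. Pcdhgc4 (ENSMUSG00000023036.14), whose isoform is known to be needed for the survival of neurons, had 42.7 and 48.2 TPM (45.5 ± 3.91). Most of this was a short transcript, Pcdhgc4-203, with 153 bases outside the shared exons and 35.5 and 41.3 TPM in the first transcript file. The full-length transcript Pcdhgc4-201 had 6.06 and 5.45 TPM there. Pcdhgc3 (ENSMUSG00000102918.1), which is known to promote dendrite arborisation through the scaffold protein Axin1, had 41.1 and 36.5 TPM (38.8 ± 3.32). These neighbours in the order were not separated in replicate 1, where the authors' deposited credibility interval was 36.6 to 47.6 TPM for Pcdhgc4 and 38.4 to 41.7 TPM for Pcdhgc3. In replicate 2 the intervals, 41.8 to 51.8 and 34.0 to 37.0 TPM, did not overlap. This order held in the gene table only. In the second transcript file Pcdhgc4 had 17.5 and 23.0 TPM, below Pcdhgc3 with 59.5 and 54.0 TPM.

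Pcdhac2 (ENSMUSG00000102697.1), which is known to let serotonergic axons tile their targets, had 24.2 and 25.0 TPM (24.6 ± 0.55). Of the markers of serotonergic cell bodies, Tph2 had 0.24 and 0.19 TPM and Fev had 0 counts in both libraries. Pcdhac1 (ENSMUSG00000103255.1), the other alpha C-type gene, had 3.52 and 3.58 TPM (3.55 ± 0.04). Its level was 0.863 times the median alpha variable member, and it lay within the range of the alpha variable genes.

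The means of the alpha variable genes ran from 2.395 to 6.15 TPM in the gene table, a range of 2.57-fold, and from 3.50 to 15.8 TPM in the second transcript file, a range of 4.50-fold. The order within the class also depended on the file. In the gene table Pcdha5 was highest with 5.62 and 6.68 TPM, Pcdha4 had 4.96 and 5.30 TPM, and Pcdha12 had 4.33 and 4.76 TPM. At the low end were Pcdha8 with 2.76 and 2.03 TPM, Pcdha2 with 3.19 and 3.25 TPM, and the Pcdha11 gene ENSMUSG00000007440.10 with 3.42 and 3.32 TPM. The remaining 6 members lay between these in mean level. In the second file the highest was the Pcdha11 gene ENSMUSG00000102206.5, and Pcdha4 was among the lowest, as given with the comparison of the files.

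The beta genes were the lowest class by median and included the members at the detection limit. Pcdhb17 had 5.28 and 4.80 TPM, Pcdhb12 had 4.51 and 4.95 TPM, and Pcdhb20 had 4.58 and 4.30 TPM. Beside Pcdhb1 (0 and 0.05 TPM) and Pcdhb8, Pcdhb3 was lowest with 1.82 and 1.53 TPM. The remaining 16 lay between these in mean level. Leaving out Pcdhb1, the highest mean was 4.48 times the lowest, which rested on Pcdhb8: the same ratio was 7.65 without replicate 2 and 3.28 without replicate 1.

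Of the gamma variable genes, Pcdhga11 had 9.27 and 9.13 TPM, Pcdhga12 had 8.28 and 7.56 TPM, and Pcdhga7 had 6.73 and 6.92 TPM. Pcdhgb8, annotated as a polymorphic pseudogene, had 3.24 and 2.31 TPM, Pcdhga2 had 3.12 and 2.53 TPM, and Pcdhga1 had 3.44 and 3.33 TPM. The remaining 13 lay between these, and the highest mean was 3.32 times the lowest. Type A members had a median of the means of 4.75 TPM and type B members 4.03 TPM.

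The order along the chromosome was set beside the levels. Over the 12 gamma A genes the Spearman correlation of start position with mean TPM was 0.78, and 0.80 in the second transcript file, so genes nearer the C-type end had higher levels. Transcript length correlated with the level of these genes to the same degree (0.77). The correlation with position was 0.50 over 22 beta genes in the gene table, against 0.52 in the second file. By library of the gene table it was 0.40 in replicate 1 and 0.51 in replicate 2. Over 12 alpha variable genes it was 0.13 in the gene table, against 0.45 in the second file, so it depended on the file. Over 7 gamma B genes it was 0.05 in the gene table, against 0.14 in the second file, and -0.07 in each library of the gene table alone. These are descriptions across genes that share their libraries, and genes are not independent replicates.

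Shared sequence limits how reads can be assigned within the alpha and gamma clusters. For the longest full-length transcript of each gene, the share of 100-base windows found in no other gene had a median of 43.8% in alpha variable, 55.6% in gamma variable, 55.9% in C-type and 99.8% in beta members. The authors' posterior SD of the count, which measures uncertainty of assignment, was lowest in beta members. In counts its median was higher in C-type members (53.1 and 51.5) than in gamma variable members (18.4 and 18.25), which had similar shares of unique windows. As a percentage of the expected count the median was lower in C-type members, at 1.43% and 1.39%. The C-type percentages ranged from 0.93% to 5.02% in replicate 1 and from 0.86% to 4.58% in replicate 2. Pcdhgc4 had posterior SDs of 112 and 118 counts on 2223 and 2726 expected counts. Its short transcript Pcdhgc4-203 had 6.95% unique windows. The median percentage was 5.04% and 5.20% in alpha variable members, 4.23% and 3.83% in gamma variable members, and 0.40% and 0.48% in beta members. Over the 6978 genes with a mean expected count of 100 to 1000 the 90th percentile was 1.07% and 1.01%. All C-type members but Pcdhac1 had counts above this band and above those of every gamma variable member. Pcdha4 had the least sequence of its own, 3.51% of windows, and the annotated gene Gm42416 holds the same variable exon.

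**Figure D2:**
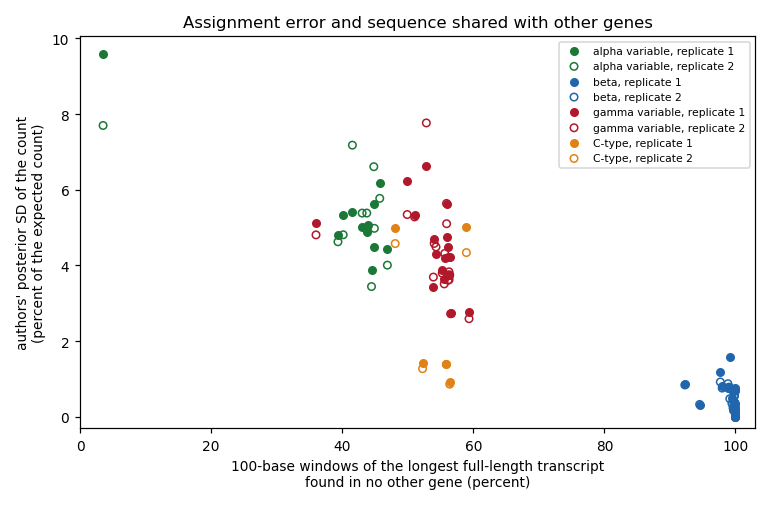
Posterior SD of the count as a percentage of the expected count (vertical axis) against the percentage of 100-base windows of the longest full-length transcript that occur in no other gene (horizontal axis), for 57 members, with filled points for replicate 1 and open points for replicate 2. Beta members sit at the right near 0%, variable alpha and gamma members between 2% and 10%, and Pcdha4 alone at 3.51% of windows.

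The gene table was then compared with gene sums from the second transcript file, a separate quantification of the same reads. Across all genes whose expected counts averaged 10 or more, the gene table gave lower TPM, with a median log2 ratio of -0.59 in replicate 1 and -0.60 in replicate 2 on TPM + 0.5. The members shifted in the same direction, with medians of -0.53 and -0.49 for C-type, -0.45 and -0.46 for alpha variable, -0.38 and -0.40 for beta, and -0.50 and -0.50 for gamma variable members. Against that shift, 2 of 57 members were over 2-fold apart in both libraries: 1 was higher in the gene table, as were 2.1% of all genes, and 1 was lower, as were 7.72% of all genes. The C-type share of the members' summed TPM in the second file was 48.2% and 46.2%.

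**Figure D3:**
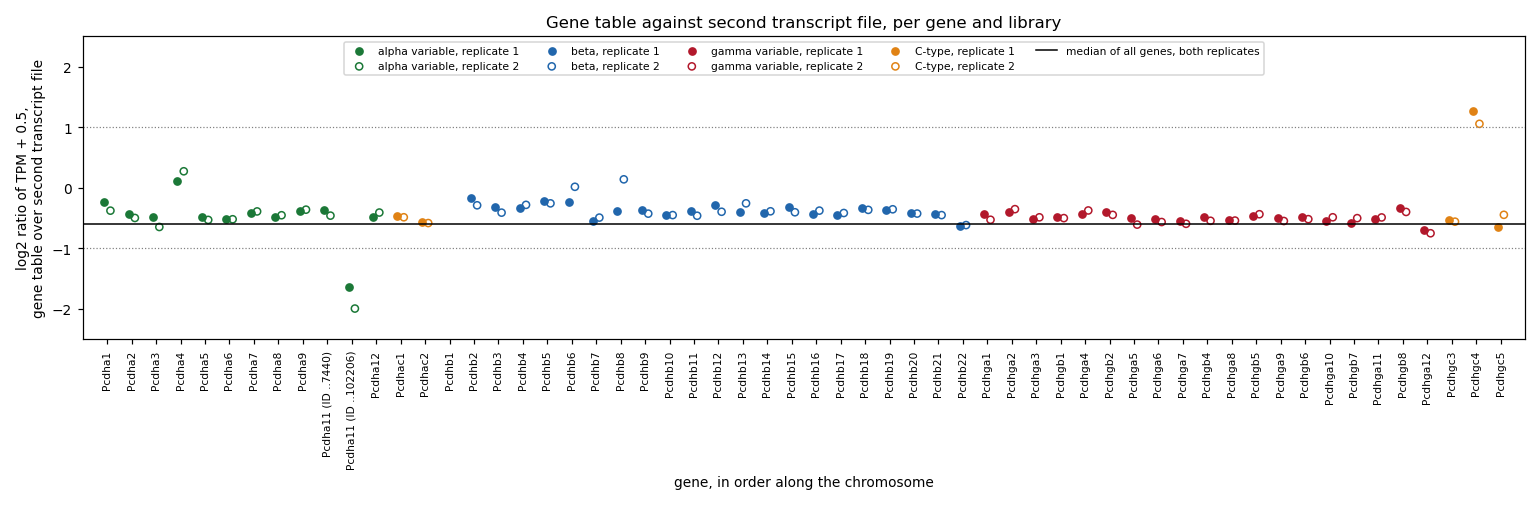
log2 ratio of TPM + 0.5 in the gene table over the second transcript file (vertical axis) for 57 members in order along the chromosome, with filled points for replicate 1 and open points for replicate 2; the solid line is the median of all genes and dotted lines mark 2-fold. Pcdhgc4 lies above and the Pcdha11 gene ENSMUSG00000102206.5 below the 2-fold lines in both libraries.

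Pcdhgc4 was the member that was higher in the gene table. It had 42.7 and 48.2 TPM there, against 17.5 and 23.0 TPM in the second file, with log2 ratios of 1.26 and 1.05. The difference lay in a single transcript, Pcdhgc4-203, which is 2272 bases long and has 153 bases outside the shared gamma exons. The first transcript file, whose values the gene table sums, gave it 35.5 and 41.3 TPM, against 5.94 and 11.96 TPM in the second file. The full-length transcript Pcdhgc4-201, of 5024 bases, had 6.06 and 5.45 TPM in the first file, against 10.8 and 9.86 TPM in the second. Counted by transcripts with 2000 or more bases outside the shared exons, Pcdhgc4 was 1.33 times the median gamma variable member in the first file and 1.61 times in the second, whereas the gene table's sum placed it at 10.5 times.

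Other short gamma transcripts also differed between the files. Gm38182, a non-coding gene with its exons over the shared gamma region, had 0.97 and 0.93 TPM in the gene table, against 51.7 and 64.1 TPM in the second file. Most of this was the transcript Gm38182-205, of 742 bases, 84.4% of which lie in the shared exons; it had 0 TPM in both libraries of the first file, against 42.7 and 59.8 TPM in the second. Summed over 4 short member transcripts of the gamma cluster and 5 transcripts of Gm38182, the levels were 56.1 and 60.9 TPM in the first file, against 95.3 and 89.2 TPM in the second. These TPM sums had log2 ratios of -0.76 and -0.55. The counts behind them did not balance: the same transcripts held 1757 and 2238 expected counts in the first file, against 655 and 918 estimated counts in the second. Whether the same reads were assigned to different transcripts was not tested.

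By full-length transcripts the other C-type genes had the same order in both files. Pcdhgc5-201 had 80.1 and 76.3 TPM in the first file, against 118 and 117 TPM in the second, which was 18.1 and 18.2 times the median gamma variable member by full-length transcripts. Its short transcript Pcdhgc5-204, of 593 bases, had 17.6 and 16.7 TPM in the first file, against 37.7 and 12.95 TPM in the second, so in the second file the libraries differed in it. Pcdhgc3 was 8.62 and 8.10 times the median gamma variable member by the same count, and Pcdhac2 was 6.96 and 7.41 times, and Pcdhac1 1.00 and 1.03 times, the median alpha variable member. With full-length transcripts only, C-type members held 44.0% of the members' summed TPM in the first file and 45.3% in the second.

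**Figure D4:**
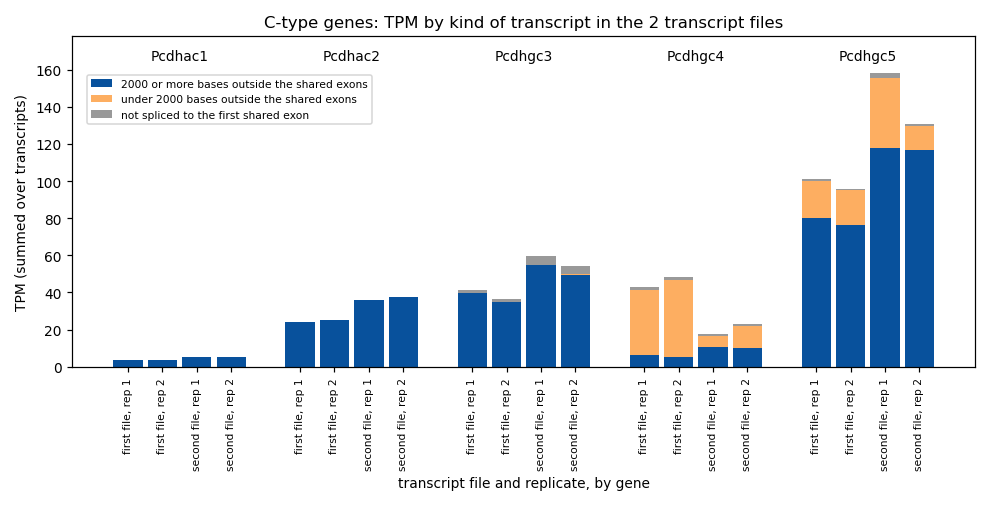
TPM of the 5 C-type genes (vertical axis) in the first and second transcript files and both replicates, as stacked bars of transcripts with 2000 or more bases outside the shared exons, transcripts with fewer, and transcripts not spliced to the first shared exon. Most of the Pcdhgc4 bar in the first file is a short transcript, and the Pcdhgc5 bars are mostly full-length.

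The Pcdha11 gene ENSMUSG00000102206.5 was the member that was lower in the gene table. It had 4.68 and 3.60 TPM there, against 15.7 and 15.8 TPM in the second file, with log2 ratios of -1.65 and -2.00. Its transcript Pcdha11-204, of 625 bases, had 1.22 and 0 TPM in the first file, against 10.4 and 10.8 TPM in the second, from 45.2 and 53.0 estimated counts there. Transcripts annotated as retained introns, Pcdha11-205 and Pcdha11-206, had 1.80 and 1.52 TPM and 1.67 and 1.10 TPM in the first file. The longer protein-coding transcripts were at or near 0. Pcdha11-202 had 0 and 0.98 TPM in the first file and 0 in the second. Pcdha11-203 had 0 TPM in the first file, against 0 and 0.79 TPM in the second. Pcdha4 stood 0.10 and 0.27 above 0 on the log2 scale, with 4.96 and 5.30 TPM in the gene table, against 4.58 and 4.31 TPM in the second file. Gm42416, which shares its variable exon, had 0 TPM in both libraries of the gene table, against 2.73 and 2.67 TPM in the second file.

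Between the libraries, the shares of members that differed were near those over all genes. Of the 57 members whose expected counts averaged 10 or more, 0 were over 2-fold apart on TPM + 0.5, beside 0.695% of all genes. Pcdhb8, with 0.69 and 1.56 TPM, was over 2-fold apart before 0.5 was added. The median log2 difference, replicate 1 over replicate 2 on TPM + 0.5, was -0.02 for C-type, 0.08 for alpha variable, 0.03 for beta and 0.07 for gamma variable members, beside 0.03 for all genes. The authors' credibility intervals of the libraries did not overlap in 3 of 57 members, beside 5.81% of all genes. These were Pcdhgc3, with 41.1 TPM in replicate 1 against 36.5 TPM in replicate 2, Pcdhgb8, with 3.24 and 2.31 TPM, and Pcdhb13, with 1.87 and 2.61 TPM. With 1 library on each side there is no test of these differences.

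Genes known to act on the clusters were listed with earlier results of these data known. Of 20 regulators of promoter choice and chromatin, 19 were detected, beside 58.4% of protein-coding genes, with medians of 21.3 and 20.2 TPM. Among them the DNA methyltransferase Dnmt3a had 63.7 and 60.3 TPM, and the cohesin regulator Pds5a had 36.8 and 36.2 TPM. Dnmt3b, which is known to methylate protocadherin promoters in the embryo, was the lowest, with 0.40 and 0.37 TPM. Ctcf, which binds the promoters and enhancers of the clusters, had 29.3 and 29.9 TPM, and the cohesin subunit Rad21 had 31.2 and 31.6 TPM.

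All 22 listed partners and effectors were detected, beside 58.4% of protein-coding genes, with medians of 61.2 and 56.9 TPM. Cyfip2 and Nckap1, parts of the WAVE complex that controls actin and is known to bind protocadherin tails, had 245 and 232 TPM and 189 and 182 TPM. The kinase Pak1 had 189 and 200 TPM. The lowest was the receptor tyrosine kinase Ret, with 2.00 and 1.78 TPM. Ptk2b, a focal adhesion kinase known to bind and be inhibited by the alpha and gamma tails, had 151 and 144 TPM.

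Non-clustered protocadherins, which lack shared exons and promoter choice of this kind, gave a comparison of level. Of 12 listed, 11 were detected, beside 58.4% of protein-coding genes. Their medians were 17.9 and 17.4 TPM, against 3.86 and 3.64 TPM for the 58 clustered members. Pcdh1 had 136 and 131 TPM, Pcdh9 82.0 and 80.4 TPM and Pcdh10 79.7 and 76.0 TPM, while Pcdh12, known from endothelium, had 0.22 and 0.40 TPM. In the gene table Pcdhgc5 lay above all but Pcdh1 of these. In the second file, where Pcdhgc5 had 158 and 131 TPM, it was not separated from Pcdh9, with 148 and 143 TPM, or Pcdh10, with 146 and 145 TPM. The full-length transcript of Pcdhgc5 alone had 80.1 and 76.3 TPM in the first file. This was close to the levels of Pcdh9 and Pcdh10 in the gene table, which sum all transcripts of a gene. In the second file it had 118 and 117 TPM, below the gene levels of both Pcdh9 and Pcdh10. The members summed to 417 and 407 TPM, and the 12 non-clustered genes to 467 and 450 TPM.

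In the gene table, 3 of 27 other annotated genes within the span of the clusters were detected, beside 26.5% of all annotated genes. They were Taf7 with 3.38 and 3.58 TPM and the pseudogenes Gm36858 and Gm19035. The 13 genes on the minus strand other than Taf7 and Slc25a2 summed to 3.51 and 2.35 TPM there, and 0 were detected. In the second file 7 of the 27 were detected, Gm38182 and Gm42416 among them, and 1 of the 13, Gm26672, with 1.82 and 1.30 TPM. The 27 genes summed to 14.1 and 12.5 TPM in the gene table, against 75.8 and 84.3 TPM in the second file. Whether counting used strand is not given in the sources used here. Of the genes beside the clusters, Zmat2 had 62.9 and 63.0 TPM, Hdac3 32.7 and 36.8 TPM, Diaph1 20.1 and 17.9 TPM, and Slc25a2 was lowest with 0.67 and 0.31 TPM.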

How the data were processed

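The 58 members and the lists of other genes were chosen with earlier results of these data known. The authors deposited, for each library, a gene table and a first transcript file with expected counts, TPM, posterior mean TPM, posterior SDs and credibility intervals whose level is not stated, under column names that RSEM writes, per the file headers. They also deposited a second transcript file of estimated counts and TPM, whose header uses kallisto's column names. The build was mm10 with GENCODE M21, per the deposited file list. Program versions, aligner and strand setting: not given in the sources used here. Reads of CAST/EiJ alleles were quantified against mm10; the effect was not tested. The 26248 numbered rows that name no gene held 7 and 10 counts, or 2.29e-05% and 3.01e-05% of all counts, and were left out.

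Members were found by symbol, and second-file TPM was summed per gene. A gene was detected at 1 TPM in both libraries, and differences used TPM + 0.5 for genes averaging 10 or more expected counts, which understates changes of low genes. Full-length transcripts hold 2000 or more bases outside the shared exons and are spliced to the first of them; beta genes keep all transcripts. Uniqueness was read from 100-base windows of the GENCODE transcripts. With 1 group no test was run. The text gives every C-type member, the 3 highest and 3 lowest of each other class by mean TPM, and members over 2-fold apart; of lists, the 3 highest and the lowest, plus Ctcf, Rad21, Ptk2b, Taf7 and the 3 members with separate intervals, named after their values were seen. The values of 1 listed gene are not reported here. Steps were tested on simulated counts. Versions were R 4.3.3, edgeR 4.0.16 (TMM), DESeq2 1.42.0 (size factors), Python 3.11.15, scipy 1.17.1, pandas 2.3.3, numpy 2.4.6 and matplotlib 3.10.9.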

Additional observations from a re-analysis of the deposited data

How the results depend on the processing

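No paired analysis was possible because there was 1 group. The number of members detected was 56 or 57 of 58 under each of 6 alternatives. It was 57 in the second file, where Pcdhb8 had 1.05 and 1.37 TPM. In the second file 55 of 58 levels moved by more than the SD, 53 upward, and with posterior mean TPM 15 moved, all downward.

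Median TPM in the second file was 5.38 for alpha variable, 3.56 for beta and 6.45 for gamma variable members. It was 4.29 for gamma variable members with posterior means and 3.03 for beta members with at least 10 counts. With full-length transcripts, a setting chosen after seeing the data, it was 3.56 for alpha variable and 24.6 for C-type members in the first file, and 4.97 for alpha variable, 3.56 for beta and 6.41 for gamma variable members in the second. Shares of summed TPM in the second file were 13.6% for alpha variable, 24.4% for gamma variable and 47.2% for C-type members, and from counts 13.6%, 24.1% and 47.9%. With full-length transcripts the shares were 13.2% alpha variable, 17.9% beta, 25.0% gamma variable and 44.0% C-type in the first file, and 12.4%, 16.9%, 25.4% and 45.3% in the second.

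Scaling by spike-ins moved the median log2 difference of all genes between the libraries to -0.15. Beside that shift the members had -0.13 for alpha variable, -0.16 for beta, -0.11 for gamma variable and -0.21 for C-type members. For alpha variable members the median was 0.022 with DESeq2 size factors and -0.014 in the second file, where its sign turned. For C-type members it was -0.065 with TMM, -0.066 with DESeq2 and -0.052 centred on all genes.

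The median log2 ratio of the gene table over the second file, at -0.46 for alpha variable, -0.37 for beta, -0.50 for gamma variable and -0.54 for C-type members, depended on the pseudocount: with 0.1 it was -0.50, -0.44 and -0.54 for the first 3 classes, and with 1 it was -0.41, -0.32 and -0.47. With posterior means it was -0.49, -0.40, -0.54 and -0.58 in the same order. With counts it was -0.028, 0.020, -0.090 and -0.082, so on the scale of counts the shift was near 0. Centred on all genes it was 0.14, 0.23, 0.094 and 0.052. Leaving out a replicate gave -0.46 to -0.45, -0.40 to -0.38, -0.50 to -0.50 and -0.53 to -0.49. By counts 1 member, Pcdhgc4, was over 2-fold apart, in place of 2. The causes were not tested.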
